A study of Danio rerio with 12 samples.

Results

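The 6 mRNAs described here are the subunits of respiratory complexes III, IV and V that zebrafish mitochondrial DNA (mtDNA) encodes: mt-cyb (ENSDARG00000063924), mt-co1 (ENSDARG00000063905), mt-co2 (ENSDARG00000063908), mt-co3 (ENSDARG00000063912), mt-atp6 (ENSDARG00000063911) and mt-atp8 (ENSDARG00000063910). They were selected by gene identifier, by a rule that uses no measured value, and all 6 were present among the 31778 genes quantified. The other 7 protein-coding genes of mtDNA, all subunits of complex I, served as the comparison. The study asked which mRNAs associate with membranes in zebrafish larvae and whether a defect in mitochondrial protein import changes that association. Larvae at 5 days post fertilization (dpf) were homogenized, nuclei and debris were cleared at 1500 g, and the membrane-bound (MB) fraction, the pellet that should hold mitochondria, was spun down at 14000 g. The high-speed (HS) fraction was then pelleted from the remaining supernatant at 100000 g. Polyadenylated RNA of both fractions was sequenced in 3 libraries per group, 12 in all.

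All groups were labelled as strain AB, carried the transgene Tg(Xla.Eef1a1:mlsEGFP)cms1, which marks mitochondria with GFP under a Xenopus Eef1a1 promoter, and were kept at 28 °C. The wild-type (WT) larvae came from in-crosses of mia40a+/+ fish. The mutants, mia40a-/- (the gene is chchd4a in the gene tables), were sorted at 4 dpf under the fluorescence microscope from in-crosses of mia40a+/- fish, and each homogenate pooled many larvae. Mutants and WT therefore came from different crosses, and only the mutants were sorted. In such pooled whole-larva fractions, fewer cells of a type, fewer mitochondria and less RNA per cell cannot be told apart.

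Mitochondria keep a small circular genome that is transcribed inside the organelle into long transcripts, which are cut into separate mRNAs and given short poly(A) tails. The proteins made from these mRNAs are core, membrane-embedded subunits of the respiratory chain: complex III passes electrons to cytochrome c, complex IV passes them on to oxygen, and complex V (ATP synthase) uses the resulting proton gradient to make ATP. All remaining subunits of these complexes are encoded in the nucleus and imported. Chchd4a (Mia40) is the oxidoreductase of the intermembrane space that captures small cysteine-rich proteins during import, among them subunits and assembly factors of complex IV.

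On the mitochondrial chromosome of the RefSeq annotation (assembly GRCz12tu, used for gene order only), the gene of mt-co1 is followed after tRNA genes by that of mt-co2, then by a tRNA gene, mt-atp8, mt-atp6 and mt-co3, while mt-cyb lies apart between the tRNA genes trnE and trnT. In vertebrates mt-atp8 and mt-atp6 overlap and are carried by the same mRNA. Reads from it can be split between both genes in quantification, and their separate values are uncertain to that extent. Counts of mRNAs given here are counts of genes, with mt-atp8 and mt-atp6 taken separately. Among the complex I genes, mt-nd4l lies directly before mt-nd4 with no tRNA gene between them. Whether reads were split between these genes as well was not tested. Gene lengths of the build used for quantification were not used here, so levels were not compared between genes, only each gene between groups. Of the 6 mRNAs, mt-atp8 has a pair of qPCR primers in the study's primer list. They are shown, 5′ to 3′, as the study lists them under this name, and were not placed on the mtDNA sequence here.

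mt-atp8 forward primer: gcctcagcttaatccaaaacc
mt-atp8 reverse primer: gcatcaacttgagttgggtcatt

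The libraries held 45621437 to 96059830 gene counts, so each of the 6 mRNAs was measured with at least 1178 counts in every library and counting error was small beside the spread between libraries. Synthetic spike-in RNAs took 1.77 to 30.0% of all counts, the most in WT HS replicate 1. One abundant row without a gene name took 4.53 to 18.3% of gene counts in WT and 0.435 to 1.82% in the mutant; leaving it out changed no call on the 6 mRNAs, an alternative chosen after seeing the data. The mutated gene, chchd4a, stood at 3.80 to 12.4 CPM (counts scaled to library size) in WT HS, at 4.57 to 5.46 CPM in WT MB, at 11.4 to 27.0 CPM in mutant HS and at 6.68 to 8.18 CPM in mutant MB. Its transcript was not lower in the mutant (edgeR log2 fold change 0.98, adjusted p = 0.0938 in HS, and 0.57, adjusted p = 0.679 in MB), and its level does not check the genotype labels. Nothing in the labels says that libraries of a group came from separate homogenates, so p-values measure the spread between these libraries.

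Together, the 6 mRNAs took a much larger part of the MB than of the HS libraries in both genotypes, and a smaller part of mutant MB than of WT MB. Their summed share of gene counts was 13.7%, 9.01% and 10.7% in WT MB, against 1.35%, 1.14% and 1.26% in WT HS. The mutant share was 7.58%, 3.89% and 4.60% in MB and 0.944%, 1.42% and 0.936% in HS. The share in MB was 8.82-fold that in HS in WT and 4.76-fold in the mutant. It was 2.14-fold lower in mutant MB than in WT MB, with no overlap between the libraries, whereas the HS shares of both genotypes overlapped. Each of the 3 differences without overlap gave p = 0.1 in a two-sided exact permutation test, the smallest p that 3 libraries against 3 allow, and the HS difference gave p = 0.4. The 7 complex I mRNAs took 2.73 to 3.95% of WT MB, 1.12 to 1.88% of mutant MB, 0.334 to 0.402% of WT HS and 0.248 to 0.448% of mutant HS.

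**Figure D1:**
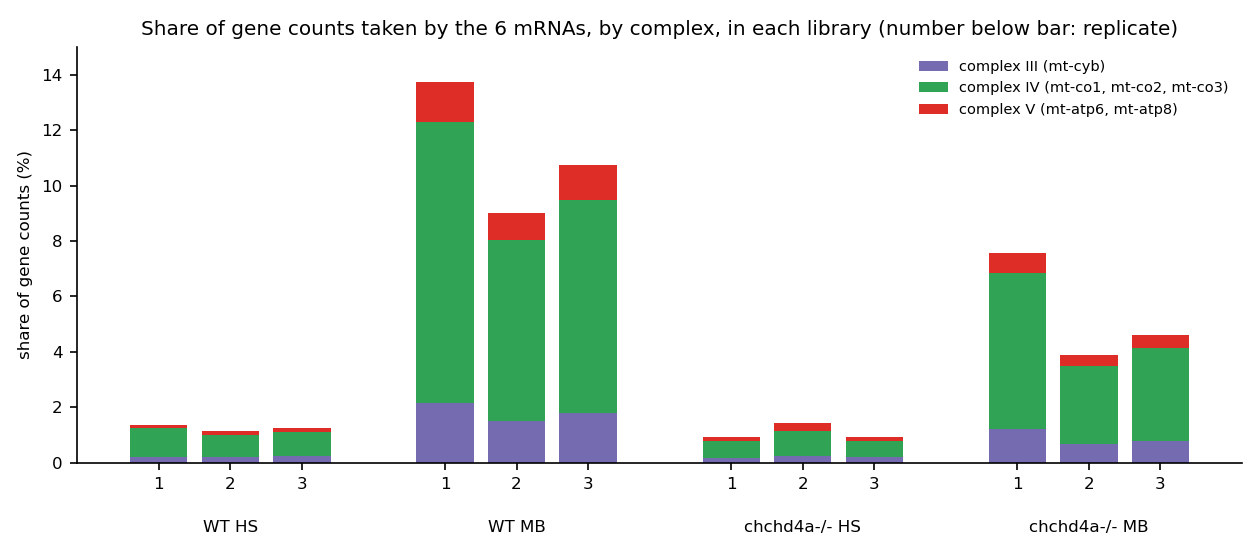
Share of gene counts (%, y axis) taken by the mRNAs of complex III, IV and V in each of the 12 libraries, stacked by complex. The WT MB bars reach 9.01 to 13.7%, the mutant MB bars 3.89 to 7.58%, and every HS bar stays between 0.936 and 1.42%.

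Levels of single genes are given below as CPM scaled by trimmed mean of M values (TMM) over all 12 libraries, in the order of replicates 1, 2 and 3. Cytochrome b, encoded by mt-cyb, is the catalytic subunit of complex III that holds the quinone sites. It stood at 3307, 2487 and 2812 CPM in WT HS and at 21915, 12198 and 15529 CPM in WT MB. In the mutant it stood at 1992, 3018 and 2384 CPM in HS and at 9630.0, 4419 and 5509 CPM in MB. Within each genotype every MB library was above every HS library, the MB libraries of both genotypes did not overlap, and the HS libraries did.

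Subunit 1 of cytochrome c oxidase, encoded by mt-co1, carries the heme-copper centre where oxygen is reduced. Its mRNA stood at 8837, 5103 and 4394 CPM in WT HS and at 60025, 31485 and 37768 CPM in WT MB. Mutant levels were 3307, 4560.1 and 2166 CPM in HS and 27074, 11655 and 13950.0 CPM in MB. The same order held as for mt-cyb, but in HS only the highest mutant library reached the lowest WT library.

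Subunit 2, encoded by mt-co2, takes electrons from cytochrome c at its copper centre. The mRNA stood at 3721, 2599 and 2877 CPM in WT HS and at 20926, 11335 and 14310.1 CPM in WT MB. Its mutant levels were 2212, 3388 and 2624 CPM in HS and 9095, 3792 and 4865 CPM in MB, so the lowest mutant MB library lay just above the highest mutant HS library.

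Subunit 3, encoded by mt-co3, is the third core subunit of complex IV and holds no metal centre. Its mRNA stood at 3471, 2249 and 2398 CPM in WT HS and at 22699, 10572 and 14043 CPM in WT MB. For mutant larvae it was at 1756, 2992 and 2344 CPM in HS and at 7819.9, 3364 and 4565 CPM in MB. As for mt-co2, the fractions of the mutant were separated by a narrow gap and those of WT by a wide one.

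Subunit a of ATP synthase, encoded by mt-atp6, forms the proton path beside the rotating ring. The mRNA stood at 1631, 1422 and 1584 CPM in WT HS and at 13421, 7087 and 9676 CPM in WT MB. Mutant larvae gave 1589.9, 3371 and 1918 CPM in HS and 5026, 2429 and 2970.3 CPM in MB. It was the one of the 6 whose mutant fractions overlapped, because HS replicate 2 lay above MB replicates 2 and 3.

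The small ATP synthase subunit encoded by mt-atp8 sits in the membrane beside subunit a. Its mRNA stood at 37.6, 119 and 148 CPM in WT HS and at 1203, 940.1 and 1305 CPM in WT MB. In the mutant it stood at 104, 256 and 80.1 CPM in HS and at 618, 337 and 385 CPM in MB. WT HS replicate 1, the library with the largest spike-in share, was far below both other WT HS libraries for this gene.

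For each of the 6 mRNAs the group means thus ordered as WT MB, then mutant MB, then the HS groups. WT HS and mutant HS, the neighbours at the low end of that order, overlapped for every one of the 6, while the mutant libraries lay wholly above WT for 16.3% and wholly below for 17.2% of all genes.

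**Figure D2:**
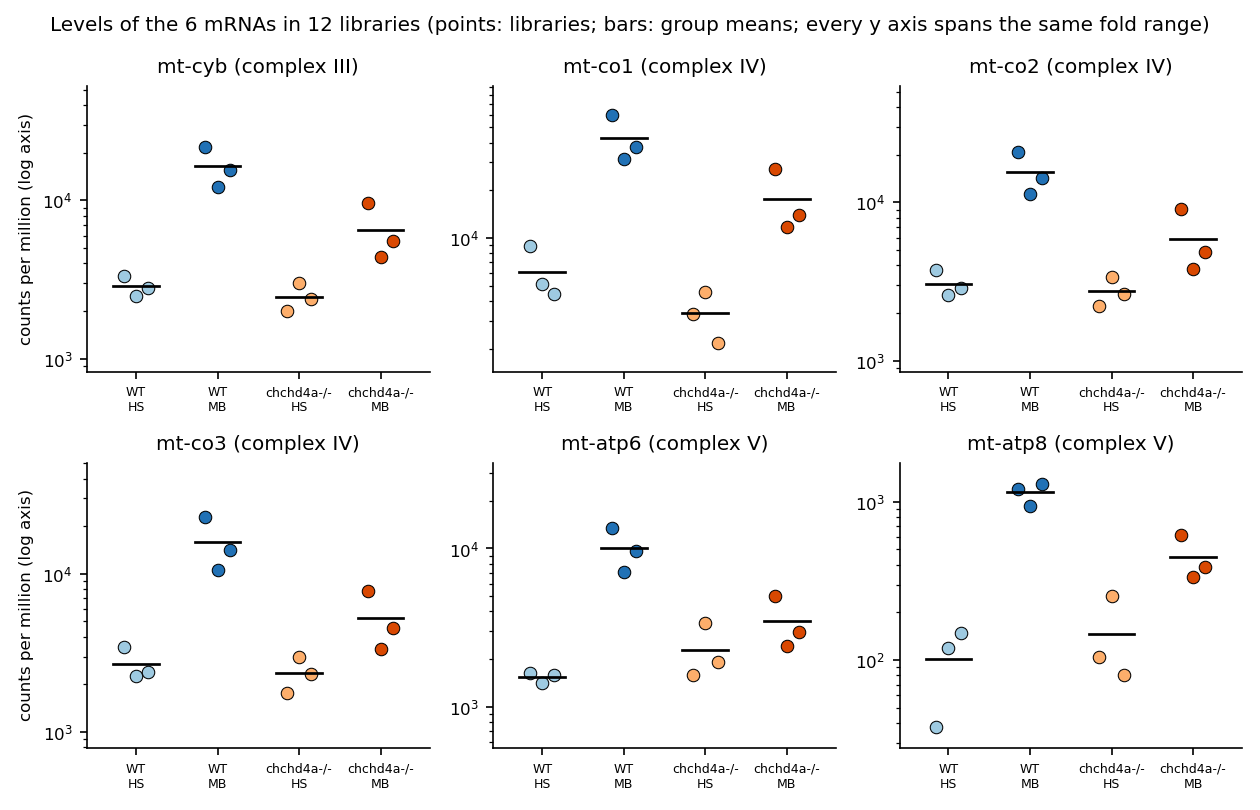
CPM of each of the 6 mRNAs (log y axes of equal fold range) in the 4 groups; points are the 3 libraries of a group and bars their mean. WT MB is highest in every panel, and for mt-atp6 the mutant MB libraries (2429 to 5026 CPM) overlap the mutant HS libraries (1589.9 to 3371 CPM).

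Comparing MB with HS within WT asked which mRNAs sediment with membranes. All 6 mRNAs were higher in MB, by 5.08-fold for mt-co2 to 11.3-fold for mt-atp8, at adjusted p from 0.00552 to 0.00833 (edgeR quasi-likelihood test, Benjamini-Hochberg adjustment over 23733 genes). Of all genes tested, 12.4% were called higher in MB (adjusted p up to 0.05). The MB libraries lay wholly above the HS libraries for all 6, as they did for 26.1% of genes. The log2 fold changes were 2.53 ± 0.34 (SE) for mt-cyb, 2.82 ± 0.44 for mt-co1, 2.35 ± 0.35 for mt-co2, 2.55 ± 0.40 for mt-co3, 2.71 ± 0.33 for mt-atp6 and 3.50 ± 0.52 for mt-atp8. Their median, 2.63, lay beside a median of 2.67 for the 7 complex I mRNAs and of 0.08 for all genes. Leaving out WT HS replicate 1 brought mt-atp8 to 3.11 on the log2 scale, still the second highest of the 6 behind mt-co1 at 3.18. The calls of all 6 were lost when WT MB replicate 2 (adjusted p from 0.0585 to 0.0627) or WT MB replicate 3 (0.0655 to 0.0751) was left out. In either of these fits 0 of all genes were called higher in MB. With the replicate number as a block all 6 calls held, and the share of all genes called higher rose to 21.4%.

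In the mutant the same comparison gave smaller ratios that differed more between the 6 mRNAs. At the same threshold 3 of the 6 were higher in MB, where 17% of the 23854 genes tested were: mt-co1 by 2.33 ± 0.46 (SE) on the log2 scale, or 5.02-fold (adjusted p = 0.00547), mt-atp8 by 1.53 ± 0.46, or 2.88-fold (adjusted p = 0.0284), and mt-cyb by 1.34 ± 0.38, or 2.53-fold (adjusted p = 0.0228). The log2 fold changes of mt-co3 (1.09 ± 0.39, adjusted p = 0.0544) and mt-co2 (1.05 ± 0.39, adjusted p = 0.0623) did not pass, nor did that of mt-atp6 (0.53 ± 0.41, adjusted p = 0.321), all by edgeR. The median of the 6 was 1.21, that of the complex I mRNAs 1.26 and that of all genes -0.01. For 5 of the 6 the MB libraries lay wholly above the HS libraries, as they did for 29.3% of genes.

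The count of 3 depended on the libraries and on the scaling. Without mutant HS replicate 2 the mt-atp8 value moved from 1.53 to 2.25 on the log2 scale. The count was 1 without mutant HS replicate 1 (mt-co1), with 1721 of all genes called higher in MB, beside 4065 in the main fit. It was 2 without mutant MB replicate 1 (2897 genes higher). It was 5 without mutant HS replicate 2 (5903 genes higher) or without mutant MB replicate 2 (2547 genes higher). DESeq2 passed 5, all but mt-atp6, and 20.3% of all genes as higher in MB. The replicate block kept the count at 3, with 24.7% of all genes called higher. Scaling by library totals, which raised the median of all genes by 0.82 on the log2 scale, passed 6, with 12524 of all genes called higher. Within each replicate number the ratio of MB to HS for mt-atp6 was 3.16, 0.721 and 1.55 in the mutant, against 8.23, 4.99 and 6.11 in WT. For mt-co1 it was 8.19, 2.56 and 6.44 in the mutant, against 6.79, 6.17 and 8.60 in WT. Mutant replicate 2 gave the lowest ratio for each of the 6 mRNAs, from 0.721 for mt-atp6 to 2.56 for mt-co1. WT replicate 2 also gave the lowest WT ratio for each of the 6, from 4.36 for mt-co2 to 7.88 for mt-atp8. The 7 complex I mRNAs had their lowest ratio in replicate 2 of both genotypes too. In the mutant these ran from 0.384 for mt-nd3 to 3.14 for mt-nd4l.

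**Figure D3:**
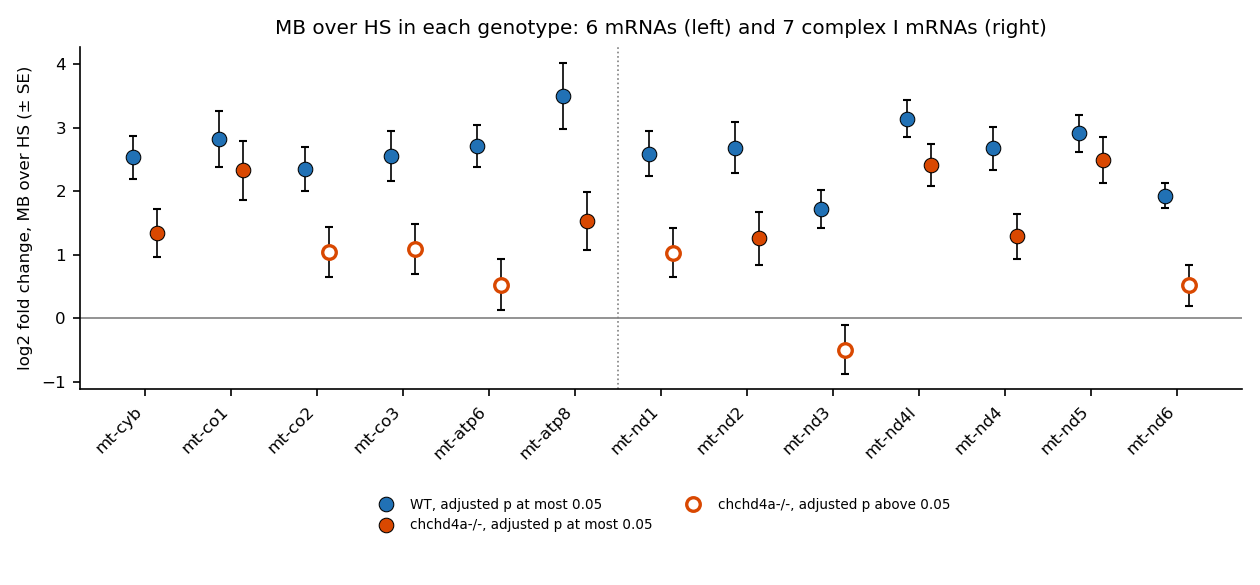
Log2 fold change of MB over HS (± SE) in WT and in the mutant for the 6 mRNAs and the 7 complex I mRNAs; filled points pass an adjusted p of 0.05 and open points do not. All 6 WT values lie between 2.35 and 3.50, and the mutant values spread from 0.53 for mt-atp6 to 2.33 for mt-co1.

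Other RNA moved with the fractions and genotypes too. Summed skeletal muscle marker mRNAs (4 of the 9 listed symbols matched, none at 0) ranged from 9542 to 25242 CPM in mutant HS and from 6487 to 10072 CPM in mutant MB, and in WT from 9774 to 10536 CPM in HS and from 8429 to 11245 CPM in MB. Exocrine pancreas markers (6 of 6 matched, none at 0) summed to 1357 to 2332 CPM in mutant MB and to 3375 to 8869 CPM in WT MB. Summed mRNAs of 5 cytosolic ribosomal proteins ranged from 13842 to 24568 CPM over the HS libraries and from 4367 to 11315 CPM over the MB libraries. Markers of the endoplasmic reticulum summed to 693 to 792 CPM in WT MB and 480 to 609 CPM in mutant MB, without overlap, and to 652 to 932 CPM in WT HS and 616 to 812 CPM in mutant HS. Liver markers summed to 1240 to 2413 CPM in WT HS and 2806 to 4165 CPM in mutant HS, and overlapped between genotypes in MB (3211 to 4756 and 3780 to 4163 CPM). Heart markers (3 of 4 matched) summed to 29.1 to 51.7 CPM in WT HS and 77.5 to 85.9 in mutant HS. In MB they summed to 16.1 to 25.9 CPM in WT and 26.3 to 30.4 in the mutant. Erythrocyte markers (2 of 3 matched) were lower in MB without overlap in both genotypes. They summed to 31.1 to 48.7 CPM in WT HS and 24.6 to 26.6 in WT MB. The mutant gave 38.7 to 73.2 CPM in HS and 18.0 to 32.0 in MB. The part of these shifts in the values of the 6 mRNAs was not tested.

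The difference in MB/HS ratio between the genotypes was tested as an interaction over all 12 libraries. It was below 0 for all 6 mRNAs: -2.10 ± 0.52 (SE) on the log2 scale for mt-atp6, -1.89 ± 0.70 for mt-atp8, -1.39 ± 0.55 for mt-co3, -1.23 ± 0.52 for mt-co2, -1.12 ± 0.49 for mt-cyb and -0.43 ± 0.61 for mt-co1. Without mutant HS replicate 2 the value of mt-atp8 was -1.19. The median of the 6, -1.31, lay beside -1.34 for the 7 complex I mRNAs and -0.07 for all genes. All 7 complex I values were below 0 as well, the lowest at -2.15. None of the 6 passed in edgeR, with adjusted p from 0.176 for mt-atp6 to 0.803 for mt-co1. No gene of the 23452 tested did (0% called), while 3374 genes had an unadjusted p under 0.05. So did 5 of the 6 mRNAs, all but mt-co1, and 5 of the 7 complex I mRNAs, in the direction in which 6.01% of genes did. This count of 5 of the 6 was not stable. It was 3 with TMM without mtDNA genes or with no filter, and from 1 (without mutant HS replicate 2) to 5 without single libraries. The share of all genes at that unadjusted p was taken in the main fit only. Whether these lower counts were particular to the 6 mRNAs was therefore not tested. In DESeq2, which called 1% of all genes in that direction, mt-atp6 was the one of the 6 that passed (adjusted p = 0.00822). With the replicate block edgeR called 0.448% of all genes in that direction and none of the 6, with mt-atp6 at an adjusted p of 0.0621.

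Comparing mutant with WT within MB showed lower levels of all 6 mRNAs by a similar amount, though none passed after adjustment. The log2 fold changes ranged from -1.30 ± 0.44 (SE) for mt-co1 to -1.59 ± 0.39 for mt-co3, which is 2.45-fold to 3.00-fold lower, with unadjusted p from 0.00125 to 0.0177 and edgeR adjusted p from 0.167 to 0.353. Only 9 genes were called in this comparison (0.0384% of 23452), and 6.4% of genes were lower at an unadjusted p under 0.05. DESeq2, which called 1.38% of all genes lower, passed 4 of the 6: mt-atp6, mt-co3, mt-cyb and mt-co2. For every one of the 6 the mutant MB libraries lay wholly below the WT MB libraries, as they did for 15.3% of genes. The median of the 6, -1.38, lay beside -1.51 for the complex I mRNAs, of which mt-nd6 was called (-2.17 ± 0.30, edgeR adjusted p = 0.0231), and -0.03 for all genes. Scaled to the spike-ins, which raised the median of all genes by 1.11, the difference of the 6 shrank to between -0.40 and -0.13 on the log2 scale, with none passing.

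In HS the levels of the 6 mRNAs did not separate the genotypes. The log2 fold changes of mutant over WT were -0.87 ± 0.43 (SE) for mt-co1, -0.22 ± 0.34 for mt-cyb, -0.19 ± 0.38 for mt-co3, -0.16 ± 0.36 for mt-co2, 0.53 ± 0.49 for mt-atp8 and 0.57 ± 0.37 for mt-atp6. None passed in edgeR (adjusted p from 0.170 to 0.779) and none had an unadjusted p under 0.05, in a comparison where 19.2% of genes were called and 12% were called lower in the mutant. Among the complex I mRNAs mt-nd5 was called lower (-1.04 ± 0.31, edgeR adjusted p = 0.0338). Scaled to the spike-ins instead, which raised the median of all genes by 1.76, all 6 mRNAs were higher in mutant HS, by 1.34 to 2.51 on the log2 scale. Of the 6, 5 passed, all but mt-co1 (edgeR adjusted p = 0.0679). Under that scaling most genes passed too: 12969 of 23452 were called higher in the mutant and 37 lower.

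**Figure D4:**
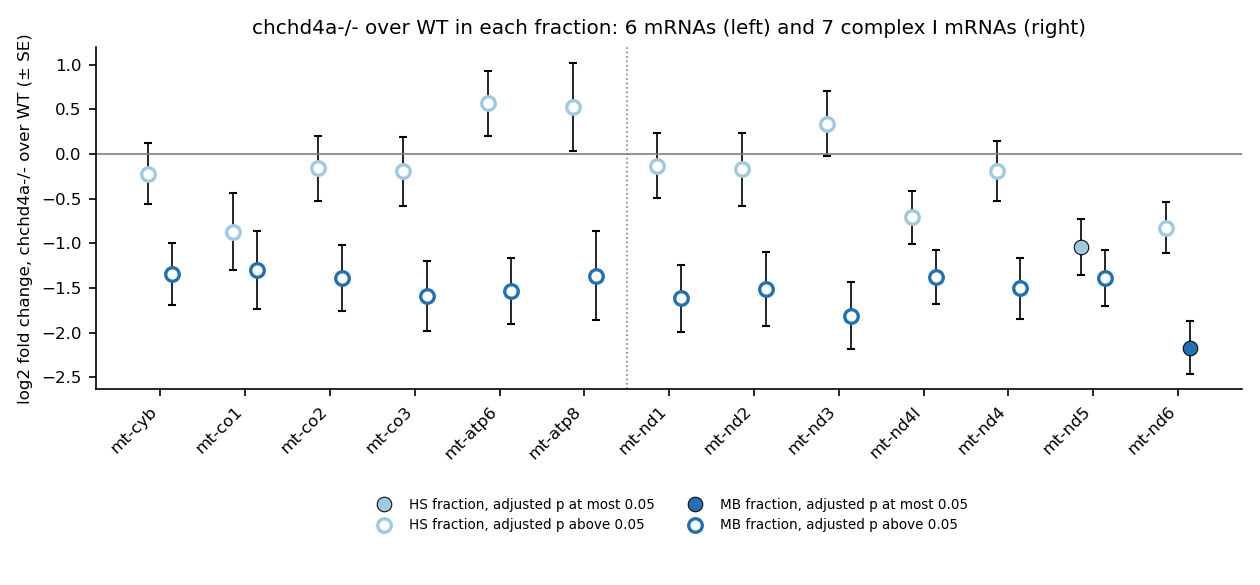
Log2 fold change of mutant over WT (± SE) in HS and in MB for the 6 mRNAs and the 7 complex I mRNAs; filled points pass an adjusted p of 0.05. The MB values of the 6 mRNAs lie between -1.59 and -1.30, and their HS values between -0.87 and 0.57.

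Ratios within a library show which of the 6 mRNAs moved more or less than the other genes of the same genome, whatever the scaling. Each mRNA was set against the geometric mean of the other 12 mtDNA mRNAs of its library, in log2 units. For mt-atp6 this balance was nearly constant in WT HS (1.07, 1.11 and 1.17), WT MB (1.22, 1.09 and 1.18) and mutant MB (1.19, 1.19 and 1.11). In mutant HS it was 1.84, 2.09 and 1.88. The gene was thus 1.77-fold higher relative to the rest of mtDNA in mutant HS than in WT HS and 1.71-fold higher in mutant HS than in mutant MB, with no overlap and p = 0.1 each (two-sided exact permutation test, smallest p possible), while the MB groups differed by 0.00 (p = 1). Mutant HS also stood apart for 2 complex I mRNAs in the other direction. The balance of mt-nd5 was -0.80 to -0.42 there and 0.12 to 0.76 in the other 9 libraries. That of mt-nd4l was -3.50 to -3.32 against -3.00 to -2.10. For the complex I mRNA mt-nd3, mutant HS stood apart in the same direction as for mt-atp6, by a narrow gap. The balance of mt-nd3 was -1.23, -1.03 and -0.40 in mutant HS and -2.92 to -1.26 in the other 9 libraries. For mt-atp8 the balance was 1.86-fold higher in mutant HS than in WT HS, with overlap (exact permutation p = 0.4). In MB over HS it was 2.27-fold higher in WT (exact permutation p = 0.2) and 1.38-fold higher in the mutant (exact permutation p = 0.3), both with overlap.

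For mt-co1 the balance was 3.71, 3.11 and 2.77 in WT HS, 3.56, 3.42 and 3.31 in WT MB, 2.99, 2.56 and 2.07 in mutant HS and 3.82, 3.64 and 3.53 in mutant MB. It was 2.18-fold higher in mutant MB than in mutant HS, without overlap (p = 0.1, the smallest possible in this exact permutation test). In WT the fractions overlapped (1.18-fold, exact permutation p = 0.5). The difference between genotypes in HS, 1.57-fold lower in the mutant, came with overlap (exact permutation p = 0.2). Smaller changes in balance came without overlap for mt-cyb, mt-co2 and mt-co3 (exact permutation p = 0.1 each). In WT, mt-cyb was 1.09-fold and mt-co2 1.26-fold lower in MB than in HS. In the mutant, mt-co3 was 1.18-fold lower in MB than in HS. Between genotypes in MB, mt-cyb was 1.14-fold higher in the mutant. Complex I mRNAs also changed without overlap, often by more. In WT MB against HS, mt-nd3 was 2.01-fold and mt-nd6 1.68-fold lower, and mt-nd4l 1.45-fold higher. In the mutant, mt-nd3 was 3.76-fold and mt-nd6 1.74-fold lower, and mt-nd4l 2.35-fold and mt-nd5 2.49-fold higher. Between genotypes in MB, mt-nd3 was 1.24-fold and mt-nd6 1.64-fold lower in the mutant, and mt-nd4l 1.14-fold higher.

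Counts of the complex IV mRNAs were also set against each other. The ratio of mt-co1 to mt-co2 counts was 2.38, 1.96 and 1.53 in WT HS, 2.87, 2.78 and 2.64 in WT MB, 1.49, 1.35 and 0.825 in mutant HS and 2.98, 3.07 and 2.87 in mutant MB. It was higher in MB than in HS without overlap in WT (1.43-fold) and in the mutant (2.51-fold), and lower in mutant HS than in WT HS without overlap (1.62-fold), each with p = 0.1, the smallest possible in this exact permutation test. In MB the genotypes overlapped (1.08-fold, exact permutation p = 0.2). The ratio of mt-co1 to mt-co3 was likewise higher in MB without overlap in WT (1.26-fold) and in the mutant (2.40-fold), with exact permutation p = 0.1 each. Between genotypes it differed from the first ratio: it overlapped in HS (1.59-fold lower in the mutant, exact permutation p = 0.2) and did not overlap in MB (1.20-fold higher in the mutant, exact permutation p = 0.1), where it was 2.64 to 2.98 in WT and 3.06 to 3.46 in the mutant. The ratio of mt-co3 to mt-co2 stayed between 0.794 and 1.08 over all 12 libraries, with overlap in every comparison. That of mt-cyb to mt-co2 lay between 0.889 and 1.17. It was higher in MB than in HS without overlap in WT (1.14-fold) and in the mutant (1.24-fold), with exact permutation p = 0.1 each. Between genotypes it overlapped in both fractions.

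Within complex V the ratio of mt-atp8 to mt-atp6 counts was 0.0231, 0.0839 and 0.0931 in WT HS and 0.0896, 0.133 and 0.135 in WT MB. It was 0.0654, 0.0759 and 0.0418 in mutant HS and 0.123, 0.139 and 0.130 in mutant MB. The ratio was higher in MB in both genotypes, by 2.07-fold in WT with overlap (exact permutation p = 0.2) and by 2.20-fold in the mutant without (p = 0.1, the smallest possible in this exact permutation test). Between libraries of equal replicate number, whose pairing the labels do not state, it was higher in MB in 3 of 3 of WT and 3 of 3 of the mutant. Between genotypes it overlapped in either fraction.

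**Figure D5:**
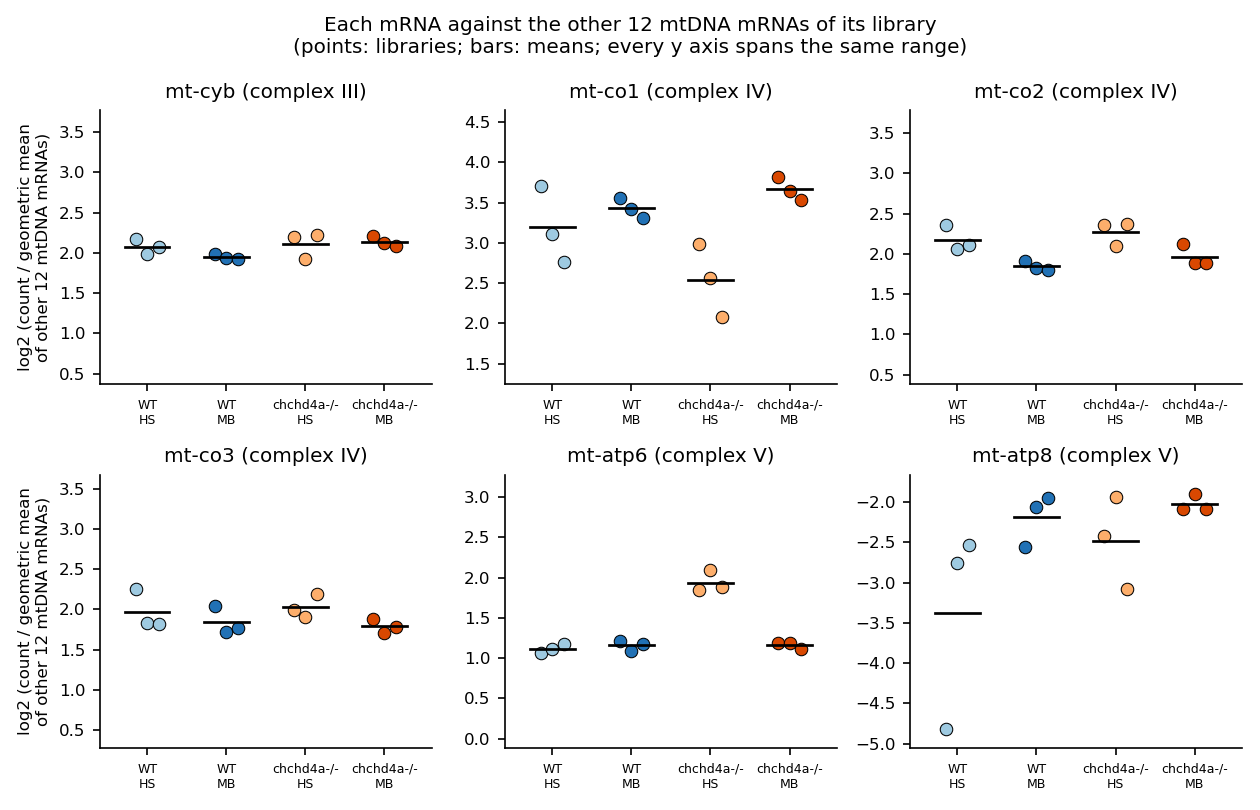
Log2 ratio of each mRNA to the geometric mean of the other 12 mtDNA mRNAs of its library, by group, on y axes of equal span; points are libraries and bars means. The mutant HS libraries stand apart for mt-atp6 (1.84 to 2.09, against 1.07 to 1.22 in the other 9 libraries), and WT HS replicate 1 stands apart for mt-atp8 (-4.82).

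Nuclear genes for the other subunits of these complexes were called lower in MB more often than higher. The lists held 10, 23 and 26 symbols for complexes III, IV and V, of which 8, 16 and 17 matched a gene and were tested. In WT, 4 of 8 complex III, 7 of 16 complex IV and 10 of 17 complex V subunit mRNAs tested were lower in MB, with 13.3% of all genes called lower, and only uqcrc1 was higher (0.91 ± 0.25 (SE) on the log2 scale, edgeR adjusted p = 0.0349). Uqcrc1 is a core subunit of complex III that was higher in MB of the mutant too (0.78 ± 0.19, edgeR adjusted p = 0.0138). In the mutant 6 of 8, 12 of 16 and 16 of 17 were lower in MB, with 20% of all genes called lower. Their median log2 fold changes were -0.98, -0.70 and -1.22 in WT and -1.47, -1.39 and -1.71 in the mutant, beside -0.01 for all genes of the mutant. Examples were the complex III subunit uqcr10 at 183 CPM in HS and 55.2 CPM in MB of WT (means of 3 libraries), the complex IV subunit cox7c at 243 and 72.1 CPM, and the complex V subunit atp5pf at 313 and 97.2 CPM.

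Of the 41 nuclear subunits of complexes III, IV and V tested, 0 were called between the genotypes in MB by edgeR. Of all genes, 0.0384% were called there. None of the 41 had an unadjusted p under 0.05, where 10.2% of all genes had one. In HS, 3 complex IV subunits and 2 complex V subunits were higher in the mutant and none was lower, with 7.25% of all genes called higher. The largest was cox6a1 (1.27 ± 0.21 (SE) on the log2 scale, edgeR adjusted p = 0.00337). In complex V they were atp5f1c (0.85 ± 0.22, edgeR adjusted p = 0.0170) and atp5mc3b (0.84 ± 0.24, edgeR adjusted p = 0.0300), a subunit of the rotor shaft and one of the membrane ring.

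Assembly factors of these complexes were lower in MB for 12 of 39 tested in WT and 30 of 39 in the mutant, with none higher, beside 13.3% and 20% of all genes called lower. In HS 4 of the 39 were higher in the mutant, a share near the 7.25% of all genes; one was cmc1 (1.11 ± 0.33 (SE) on the log2 scale, edgeR adjusted p = 0.0336), which in human cells binds newly made COX1, and none was lower. Of 30 genes for mtDNA transcription, RNA processing and mRNA stability, 1 was higher and 6 were lower in WT MB (all genes, 12.4% and 13.3%), and none was higher and 10 were lower in mutant MB (all genes, 17% and 20%). The one higher in WT MB was polrmt, the mitochondrial RNA polymerase (0.92 ± 0.22, edgeR adjusted p = 0.0254), and slirp, the partner of Lrpprc in mRNA stability, was lower in MB of WT (-1.44 ± 0.17, adjusted p = 0.00544) and of the mutant (-1.36 ± 0.27, adjusted p = 0.00533). Between the genotypes fastk was the single call on this list, lower in mutant HS (-1.02 ± 0.20, edgeR adjusted p = 0.00528) at a mean of 35.5 CPM against 72.1 CPM, and 1 of 30 is a smaller share than the 12% of all genes called lower there. Fastk belongs to a family of mitochondrial RNA-binding proteins, and in mammals one of its forms is needed for the mRNA of ND6. Of 11 mitochondrial translation factors 3 were lower in WT MB and 5 in mutant MB, beside 13.3% and 20% of all genes. The one higher in mutant HS, where 7.25% of all genes were, was mtrf1, a release factor (0.76 ± 0.23, edgeR adjusted p = 0.0373).

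Across the 12 libraries the profiles of the 6 mRNAs ran close to their common mean profile in log2 CPM. Pearson's r was from 0.928 for mt-atp8 to 0.995 for mt-cyb. Each of the 6 is itself part of that mean, which raises its r. The complex I mRNAs, which are not part of that mean profile, ranged from 0.764 for mt-nd3 to 0.993 for mt-nd4. Outside mtDNA the genes most like that profile were tpst1 (r = 0.972), fgf24 (0.969), slc29a4 (0.956), si:ch211-113d22.2 (0.952) and ptpru (0.950). Of these, tpst1 averaged 25.7 CPM in WT HS, 39.1 in WT MB, 25.2 in mutant HS and 30.8 in mutant MB. The points share their libraries and fall into 4 groups, so the coefficients are a description over 12 libraries only.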

How the data were processed

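Each of the 12 libraries was made from 2 µg of RNA with spike-ins added, by poly(A) capture and a stranded kit, and read as paired ends of 75 nt. Per the study's methods and the labels, the authors quantified reads with Salmon 1.4.0 against transcripts of the masked danRer11 genome (Ensembl annotation) and the spike-ins. The deposited values are expected counts per gene (estimated counts that need not be whole; 30.5% were not), in 1 table per genotype, which were joined here by gene and rounded. No other columns were left unused (0).

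Genes with more than 50 counts were kept, summed over the 6 libraries of a genotype, and in each genotype for fits over all 12 libraries. Tests used edgeR 4.0.16 (TMM, quasi-likelihood F test, prior count 0.125, R 4.3.3) with Benjamini-Hochberg adjustment over all genes tested. SE is the log2 fold change over the root of F. DESeq2 1.42.0 was the alternative tool. Shares and within-library ratios were compared by two-sided exact permutation of 3 against 3 libraries, which cannot go below p = 0.1. As in the study's methods, MB was compared directly with HS. The main fits had no block. Gene names came from the study's gene tables (6469) and from a reference table (22682), and 2627 genes had none.

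Libraries of the same number in HS and MB deviated together from their group means over 20441 genes. Their r was 0.478 to 0.606 in WT and 0.302 to 0.541 in the mutant. Libraries of different numbers gave r from -0.576 to 0.505 in WT and from -0.411 to 0.112 in the mutant. WT HS replicate 3 was thus closer to WT MB replicate 2 (0.505) than to WT MB replicate 3 (0.478). The labels do not state that equal numbers share a homogenate, so the pairing is uncertain. A fit with the replicate number as a block was run beside the fit without. On simulated counts the WT comparison called 2 of 100 genes changed by 1 on the log2 scale and 72 of 100 changed by 2. It made 3 false calls. The interaction called 0 and 42, with 2 false calls. The mutant MB over HS comparison called 19 and 96, with 10 false calls. Mutant over WT called 9 and 82 in HS, with 5 false calls, and 6 and 83 in MB, with 7. Each simulated library was drawn independently, so these counts lack the shared deviation described above. Alternatives were DESeq2, TMM without mtDNA genes, library totals, spike-in totals, other filters, another prior count, an adjusted p of at most 0.01, the block, and leaving out each library. The rule for the 6 mRNAs uses gene identifiers only, but the rule, the gene lists and the tests were chosen with earlier results of these data known. Fold changes were given for all 6 mRNAs in every fit, except for mutant over WT in MB, where only the ends of the range were. Changes in balance were given for mt-atp6 and mt-co1, for mt-atp8 except between genotypes in MB, and for others of the 6 where libraries did not overlap. Complex I mRNAs were named only at an end of their range, when called, or where their balance stood apart or did not overlap between groups. From each list up to 2 genes each way were named, with the largest changes past the threshold. Listed symbols without a match were not tested: 39 of 42 assembly factors matched. So did 30 of 33 genes for mtDNA transcription, RNA processing and mRNA stability, and 11 of 11 translation factors. Marker mRNAs were summed in CPM.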

Additional observations from a re-analysis of the deposited data

How the results depend on the processing

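The direction of MB over HS held for all 6 mRNAs in both genotypes under every alternative run, and that of mutant below WT in MB held too. The count of 6 calls in WT was 6 under all alternatives except leaving out single libraries, where it ranged from 0 to 6. In the fits that gave 0, none of all genes was called higher in MB (0 genes). Of the 23733 genes tested in WT, 2948 were called higher in MB in the main fit. With library totals 7997 were, and with spike-in totals 17805, so a count of 6 says less there. In the mutant the count of 3 became 1 at an adjusted p of at most 0.01, 5 in DESeq2 and 5 with all 12 libraries in one fit. It became 6 with library totals and 6 with spike-in totals, and ranged from 1 to 5 without single libraries. Of all genes, 4065 were called higher in the main fit, 12524 with library totals and 18108 with spike-in totals. Spike-in totals are doubtful between fractions. The profiles of 43 spike-ins correlated at 0.9875 or less across fractions. Within a fraction they correlated at 0.9697 or more over all libraries, and at 0.9929 or more without WT HS replicate 1. Fractions were thus separated only without that library, and whether both received the same mix was not tested. With the replicate block the count of the 6 mRNAs called was 3 in the mutant and 6 in WT, so the block changed neither count. For the genotype difference in the ratio the count of 0 became 1 in DESeq2. For mutant against WT in MB it became 4 in DESeq2. In HS it became 5 with spike-in totals, which called 12969 of all genes higher in the mutant. In HS the log2 differences turned to 1.69 for mt-cyb, 1.34 for mt-co1, 1.79 for mt-co2 and 1.80 for mt-co3 with spike-in totals. Leaving out single libraries gave -0.38 to 0.050 for mt-co2, -0.44 to 0.075 for mt-co3 (both above 0 without WT HS replicate 1) and -0.15 to 0.89 for mt-atp8 (below 0 without mutant HS replicate 2). The gap between the 6 mRNAs with the highest and lowest change in balance was 1.51 on the log2 scale for MB over HS in WT (0.73 to 1.96 without single libraries), 1.90 in the mutant (1.69 to 2.17) and 1.55 for mutant over WT in HS (1.19 to 2.18). The cause of these changes was not tested. No paired analysis was possible because mutants and WT share no homogenate for these last comparisons within a fraction.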
